A study of Mus musculus with 12 samples.

Results

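The proteasome subunit genes are the 45 genes whose symbol runs from Psma to Psmg followed by a number, without Psmb8, Psmb9 and Psmb10, the catalytic subunits of the immunoproteasome. They were picked by symbol alone from the 48709 genes listed in each table, and 44 of them were tested by the authors. The exception, Psma8, an alpha subunit known from the testis, was listed at 0 in every table. The series sequenced RNA of sorted mouse T cells, with 12 libraries in 4 arms of 3. The arms were anti-CTLA-4, which blocks the inhibitory receptor CTLA-4, anti-PD-1 DANA, a PD-1 antibody whose Fc part, as DANA usually denotes, is altered so that Fc receptors do not bind it, Combo, which received both antibodies, and an isotype control antibody. All mice were C57BL/6 wild type animals of postnatal day 91 that carried a TRAMP-C2 tumour, a transplanted mouse prostate tumour line, and all 4 arms share the tumour and the sort: live CD45+CD3+CD8+ cells of the draining lymph nodes that were positive for Spas-1 and negative for Spas-2. Dosing days were 3, 6 and 9 in the sample labels and 3, 6 and 8 in the series text, and cells were taken on day 28, whose starting point the labels and the series text place differently. Cells of 5 mice were pooled in each arm and the pool was split into 3 libraries, so each p-value measures only the spread between splits of 1 pool, and arm and pool cannot be told apart.

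The proteasome is the barrel-shaped protease that degrades ubiquitin-tagged proteins in the cytosol and nucleus. Alpha rings close its ends, beta rings hold the protease sites, and a regulatory cap, made of a base with ATPases and a lid with a deubiquitinase, binds and unfolds the substrate. Dedicated chaperones assemble core and base, alternative activators can replace the cap, and in T cells the particle cuts signalling proteins and cyclins and supplies peptides for MHC class I.

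Depth, recovered from the size of single-read steps in low values, was 14729713, 19092840 and 29583827 reads in the anti-CTLA-4 libraries, 24233466, 26771040 and 31943900 in the anti-PD-1 DANA libraries, 24594651, 31993868 and 42556869 in the Combo libraries, and 23973359, 24512669 and 32867235 in the isotype libraries. The libraries are known by size only, and are given below from the smallest to the largest of each arm. All 8 CD8 T cell markers were expressed, at a summed 2276 RPKM (reads scaled to exon length and library depth) in anti-CTLA-4, 2443 in anti-PD-1 DANA and 1644 in Combo, against 1721 in isotype, and none of them was called in any table. The 8 B cell markers summed to 1118 RPKM in anti-CTLA-4, 489 in anti-PD-1 DANA and 379 in Combo, against 500 in isotype, with Ms4a1 called higher in anti-CTLA-4. Myeloid markers (5 of 6 found) summed to 92.1 RPKM in anti-CTLA-4, 64.6 in anti-PD-1 DANA and 3.46 in Combo, against 64.3 in isotype, with Adgre1 listed at 0, Fcgr3 called lower in all 3 treated arms, C1qa lower in anti-CTLA-4, Lyz2 lower in Combo and Csf1r higher in anti-PD-1 DANA. Cd4 was called higher in anti-CTLA-4, where it was about 2.48 RPKM. Foxp3 was about 1.06 RPKM there, against about 0.531 in isotype, and was not called. The natural killer cell receptor Ncr1 was listed at 0. Klrb1c, the other marker of these cells, was about 1.39 RPKM in anti-PD-1 DANA against about 0.00929 in isotype, and was not called. The erythroid marker Hbb-bs was about 2.86 RPKM in anti-CTLA-4 and 3.07 in Combo, and Hba-a1 about 1.39 in anti-CTLA-4, each against 0 in isotype and not called. The part of other cells in the results below was not tested, and in pooled RNA fewer cells of a type and less RNA per cell cannot be told apart.

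Few proteasome genes differed from isotype by the authors' test, and the 5 that did were the assembly chaperones Psmd5, Psmg2 and Psmg3, the cap subunit Psmd1 and the inhibitor Psmf1. A gene is called here where the false discovery rate in the authors' deposited table was under 0.05. With anti-CTLA-4, 2 of 44 tested proteasome genes were called higher and 0 lower, where 4.23% of the 17833 tested genes were called (2.74% higher and 1.49% lower). With anti-PD-1 DANA, 4 were called higher and 1 lower, where 3.75% of tested genes were called (2.43% higher and 1.32% lower). With Combo, 3 were called higher and 0 lower, where 7.53% of tested genes were called (3.94% higher and 3.59% lower). The shares of called members, 4.55%, 11.4% and 6.82%, rest on these few genes. At an unadjusted p under 0.05, 9, 7 and 11 members passed in the 3 comparisons, where 22.9%, 23.1% and 23.2% of tested genes did. Psmd1 and Psmd5 were called higher in all 3 tables, where 1.14% of tested genes were called in all 3. Psmg2 was called higher in 2 tables, Psmg3 higher in 1 and Psmf1 lower in 1, and 39 tested members were called in none. Core and lid subunits were called lower under other settings: with adjustment over tested genes only, Psmd13 with anti-CTLA-4 (adjusted p = 0.0278) and Psmb2 with Combo (adjusted p = 0.0345), and among genes with a larger mean of 5 RPKM or more also Psmb3 with anti-CTLA-4 (adjusted p = 0.0394) and Psmd7 with Combo (adjusted p = 0.0436), each by Benjamini-Hochberg adjustment of the authors' p-values. In either direction, the first setting called 9.06% of tested genes with anti-CTLA-4 and 12.5% with Combo. The second called 13.9% and 22.1% of the genes it kept. With scaling by library size, no member was called lower in these comparisons. The log2 fold changes were then -1.55 for Psmd13 and -0.54 for Psmb3 with anti-CTLA-4. With Combo they were -2.17 for Psmb2 and -3.06 for Psmd7.

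**Figure D1:**
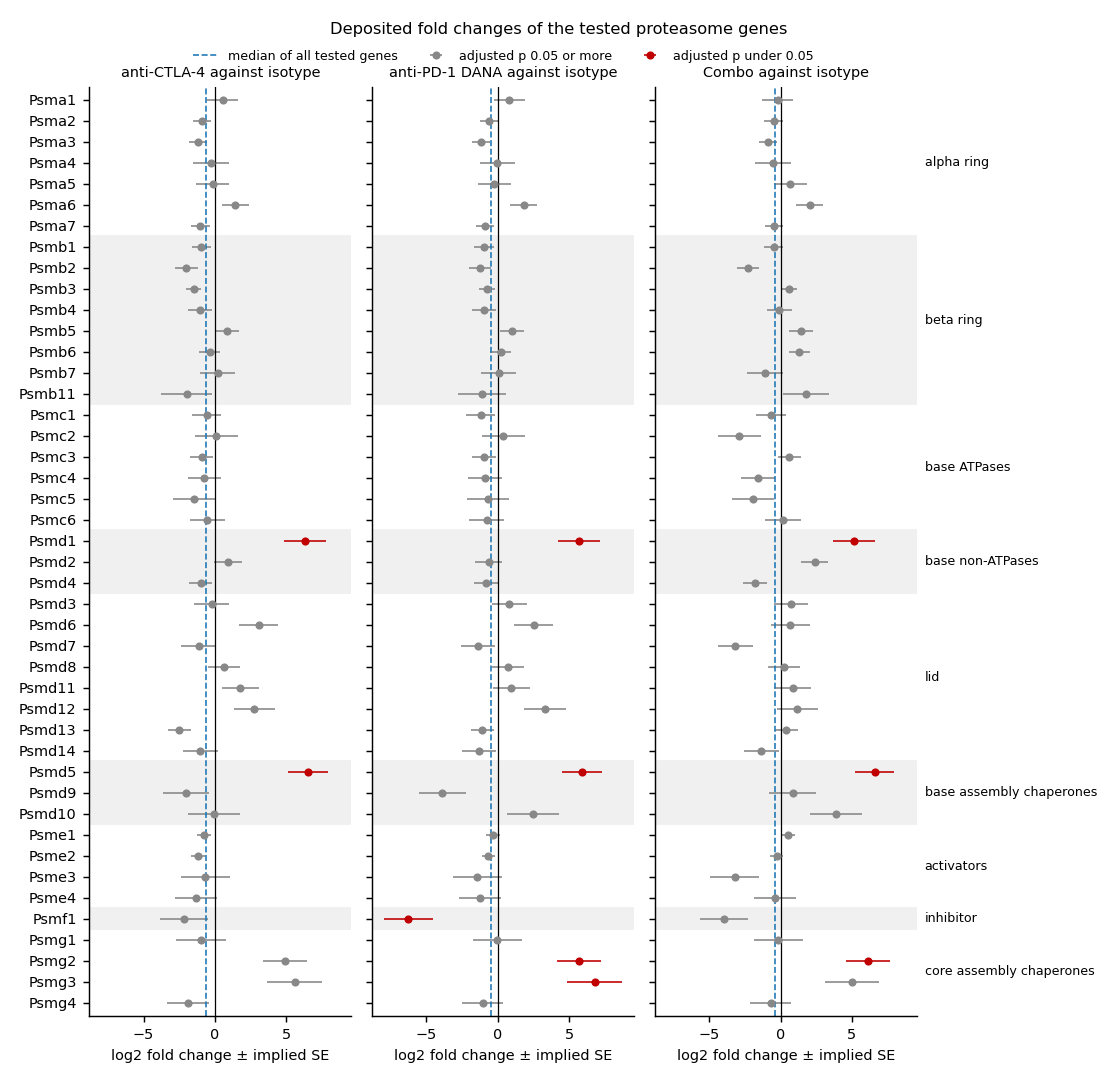
Log2 fold change of the 44 tested proteasome genes against isotype in the authors' deposited tables, 1 panel per treated arm, with bars for the standard error implied by the deposited p-value; red points had an adjusted p under 0.05, the dashed line is the median of all tested genes and grey bands separate role classes. Psmd1 and Psmd5 are red in every panel, while the alpha ring, beta ring and ATPase genes stay within a few log2 units of 0.

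Psmd1, a scaffold subunit of the base, was the only called member among the core and cap subunits. Its deposited mean was 10.5 RPKM in anti-CTLA-4, 6.34 in anti-PD-1 DANA and 2.63 in Combo, against an estimated 0.0697 RPKM in isotype. The authors' deposited table gave it log2 fold changes of 6.28 ± 1.48 under anti-CTLA-4 (adjusted p = 0.00711), 5.70 ± 1.48 under anti-PD-1 DANA (adjusted p = 0.0178) and 5.12 ± 1.48 under Combo (adjusted p = 0.0269), where ± is here and below the standard error implied by the deposited p-value. All 3 treated arms lay above isotype, which is the same comparison arm in each table, so the 3 values are not independent. Psmd1 lies on chromosome 1 (GRCm38, 86064387 to 86139151, plus strand), and 301 bases (4.14%) of its annotated exon sequence are shared with another gene model on the same strand and 252 (3.47%) with Htr2b on the other strand; reads from these stretches cannot be assigned to 1 gene.

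Psmd5 encodes a chaperone that holds base ATPases during assembly and is not part of the finished particle. Its mean was 9.45 RPKM in anti-CTLA-4, 5.83 in anti-PD-1 DANA and 5.60 in Combo, against an estimated 0.0548 in isotype. The fold changes in the authors' deposited table were 6.50 ± 1.39 (adjusted p = 0.00245) under anti-CTLA-4, 5.90 ± 1.39 (adjusted p = 0.00695) under anti-PD-1 DANA and 6.58 ± 1.39 (adjusted p = 9.40e-04) under Combo on the log2 scale. Psmd5 had the lowest adjusted p of the members in each table. The gene lies on chromosome 2 (34849734 to 34874968, minus strand).

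Psmg2 and Psmg3 encode chaperones that assemble the alpha ring of the core. Psmg2 had a mean of 19.7 RPKM in anti-CTLA-4, 30.6 in anti-PD-1 DANA and 25.7 in Combo, against an estimated 0.345 in isotype. It rose with anti-PD-1 DANA (5.65 ± 1.54, adjusted p = 0.0268) and with Combo (6.12 ± 1.54, adjusted p = 0.00756) in the authors' deposited table, and stood at 4.91 ± 1.54 with anti-CTLA-4 (adjusted p = 0.0699). Not every treated library was high: whole reads solved from the means were 378, 4 and 1087 in the anti-CTLA-4 libraries, 542, 716 and 1534 in the anti-PD-1 DANA libraries and 5, 535 and 2748 in the Combo libraries. The estimated isotype level corresponds to about 29.7 reads over the 3 isotype libraries together. In RPKM, 1 anti-CTLA-4 library (0.198) and 1 Combo library (0.192) lay under the estimated isotype mean of 0.345. Each of the 3 anti-PD-1 DANA libraries had 21.1 RPKM or more, from 542 reads or more.

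Psmg3 averaged 8.05 RPKM in anti-CTLA-4, 17.1 in anti-PD-1 DANA and 3.06 in Combo, against an estimated 0.0878 in isotype, about 6.31 reads in all. It was called with anti-PD-1 DANA only (6.78 ± 1.92, adjusted p = 0.0370), with 5.59 ± 1.92 (adjusted p = 0.120) under anti-CTLA-4 and 5.0 ± 1.92 (adjusted p = 0.180) under Combo in the authors' deposited table. Psmg3 lies on chromosome 5 (139823592 to 139826885, minus strand). Its reads were 107, 3 and 411 in the anti-CTLA-4 libraries, 447, 179 and 648 in the anti-PD-1 DANA libraries, and 3, 2 and 337 in the Combo libraries. The largest Combo library thus gave 97.7% of the Combo mean, and every anti-PD-1 DANA library was high. Reads of Psmg3 and of an overlapping gene on the same strand cannot be separated over 280 (9.68%) of its 2893 annotated exon bases. The reads above were solved with an exon length of 883 bases, from some transcripts only. How many of the 280 bases are among those 883 is not known here. Of the other core chaperones, Psmg1 had 10.4 RPKM (estimated) in anti-CTLA-4, 16.6 in anti-PD-1 DANA and 10.4 (estimated) in Combo, against 10.7 in isotype, with deposited log2 fold changes of -0.99, -0.03 and -0.15 in the authors' deposited tables. Psmg4 had an estimated 25.7, 41.9 and 32.9 RPKM in the treated arms, anti-CTLA-4 first and Combo last, against 49.5 in isotype (-1.89, -1.06 and -0.70 in the authors' deposited tables). Those 2 chaperones were not called in any table.

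Psmf1 encodes an inhibitor of the core particle. It was the only member called lower: its deposited isotype mean was 5.57 RPKM, against which the levels were estimated at 2.40 RPKM in anti-CTLA-4, 0.128 in anti-PD-1 DANA and 0.392 in Combo. Its log2 fold changes in the authors' deposited table were -2.16 ± 1.69 (adjusted p = 1.0) under anti-CTLA-4, -6.26 ± 1.70 (adjusted p = 0.0256) under anti-PD-1 DANA and -3.94 ± 1.69 (adjusted p = 0.306) under Combo. With scaling by library size in place of the authors' scaling the anti-PD-1 DANA value was -5.44 and its adjusted p 0.0519, so the call was lost. Psmf1 lies on chromosome 2 (151715812 to 151744186, minus strand).

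The 4 genes called higher were also those with the lowest isotype levels of the tested members apart from Psmb11: Psmd5, Psmd1, Psmg3 and Psmg2 ranked from the second to the fifth lowest of 44. The isotype level is part of the fold change, so this order describes the genes and is no separate result. Across members with isotype levels under 2 RPKM (9 genes) the median log2 fold change was 3.06 in anti-CTLA-4, 3.30 in anti-PD-1 DANA and 3.86 in Combo. Across the 22 members at 20 RPKM or more it was -1.02, -0.91 and -0.46. None of the 22 was called, where 4.23%, 3.75% and 7.53% of all tested genes, at any level, were. The share called among all genes with so high an isotype level is not given here, so this is no like comparison. Both groups of members are cut on the isotype level too, so they describe the genes in the same way. With a cut at 20 RPKM on the larger mean instead, the medians were -0.93, -0.79 and -0.19 for members. For all genes at that cut they were -0.81, -0.68 and -0.56.

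Promoters are shown for Psmd1 and Psmd5, called higher in all 3 tables, for Psmg3, called higher with anti-PD-1 DANA only, and for Psmf1, called lower with anti-PD-1 DANA only; that of Psmg2 is not shown. Psmb5, the chymotrypsin-like catalytic subunit and most abundant member in the treated arms, is shown beside them. RefSeq windows (GRCm38.p6) of 300 bases, from 250 before to 50 after the RefSeq start, were found for 37 of 45 members, and 5 motifs were searched on both strands; capitals mark every match. Psmd1 (chr1:86064369-86064668, plus strand), Psmd5 (chr2:34870913-34871212, minus), Psmg3 (chr5:139826845-139827144, minus), Psmf1 (chr2:151741261-151741560, minus) and Psmb5 (chr14:54617946-54618245, minus) read 5′ to 3′ as follows. The Psmd5 and Psmf1 windows lie inside the region that the tables give for these genes.
Psmd1: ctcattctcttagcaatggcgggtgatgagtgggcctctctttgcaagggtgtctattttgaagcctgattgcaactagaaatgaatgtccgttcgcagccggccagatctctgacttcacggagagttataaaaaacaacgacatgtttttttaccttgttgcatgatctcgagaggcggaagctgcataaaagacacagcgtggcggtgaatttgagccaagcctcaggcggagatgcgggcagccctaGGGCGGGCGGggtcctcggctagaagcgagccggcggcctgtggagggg
Psmd5: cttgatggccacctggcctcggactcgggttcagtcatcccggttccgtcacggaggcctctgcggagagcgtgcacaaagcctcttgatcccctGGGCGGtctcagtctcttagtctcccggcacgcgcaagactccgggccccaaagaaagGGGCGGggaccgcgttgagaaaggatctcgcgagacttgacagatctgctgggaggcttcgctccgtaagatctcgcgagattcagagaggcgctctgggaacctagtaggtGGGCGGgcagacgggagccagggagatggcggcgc
Psmg3: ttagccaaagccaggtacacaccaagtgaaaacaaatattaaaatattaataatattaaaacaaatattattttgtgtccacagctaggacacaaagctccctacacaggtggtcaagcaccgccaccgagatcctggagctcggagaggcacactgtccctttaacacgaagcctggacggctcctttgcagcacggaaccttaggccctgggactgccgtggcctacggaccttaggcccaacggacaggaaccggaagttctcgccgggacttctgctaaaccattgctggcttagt
Psmf1: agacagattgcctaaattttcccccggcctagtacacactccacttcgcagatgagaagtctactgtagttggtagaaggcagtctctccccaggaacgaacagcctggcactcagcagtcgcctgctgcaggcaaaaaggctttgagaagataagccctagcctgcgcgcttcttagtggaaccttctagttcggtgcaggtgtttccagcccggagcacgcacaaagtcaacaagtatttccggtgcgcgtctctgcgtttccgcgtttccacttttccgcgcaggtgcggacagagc
Psmb5: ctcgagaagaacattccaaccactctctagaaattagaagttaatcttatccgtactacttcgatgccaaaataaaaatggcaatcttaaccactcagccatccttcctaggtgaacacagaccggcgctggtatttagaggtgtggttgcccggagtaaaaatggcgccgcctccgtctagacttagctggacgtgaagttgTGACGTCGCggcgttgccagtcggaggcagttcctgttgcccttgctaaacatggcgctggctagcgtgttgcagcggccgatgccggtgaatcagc

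The GC box GGGCGG, bound by Sp factors, occurred 2 times in the Psmd1 window, where the matches overlap each other just after the start, and 3 times in the Psmd5 window. No motif searched was in the Psmg3 or Psmf1 window. The element TGACNNNGC, of the type that the proteasome regulator NFE2L1 binds, occurred in the Psmb5 window and in 6 of 37 members (16.2%), against 12.4% of all 32851 promoters. GGGCGG was in 22 members (59.5%) against 35.7% of all promoters, CCAAT in 13 (35.1%) against 37.4%, an interferon-response type element (TTTC, any 2 bases, TTTC) in 5 (13.5%) against 3.44%, and TTCNNNGAA in 2 (5.41%) against 8.30%. A member counted as matched if any of its promoters matched, and 3 members had more than 1, whereas the share of all promoters is per promoter. The 2 kinds of share are therefore not quite alike. These counts describe letters in the windows and were not tested.

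**Figure D2:**
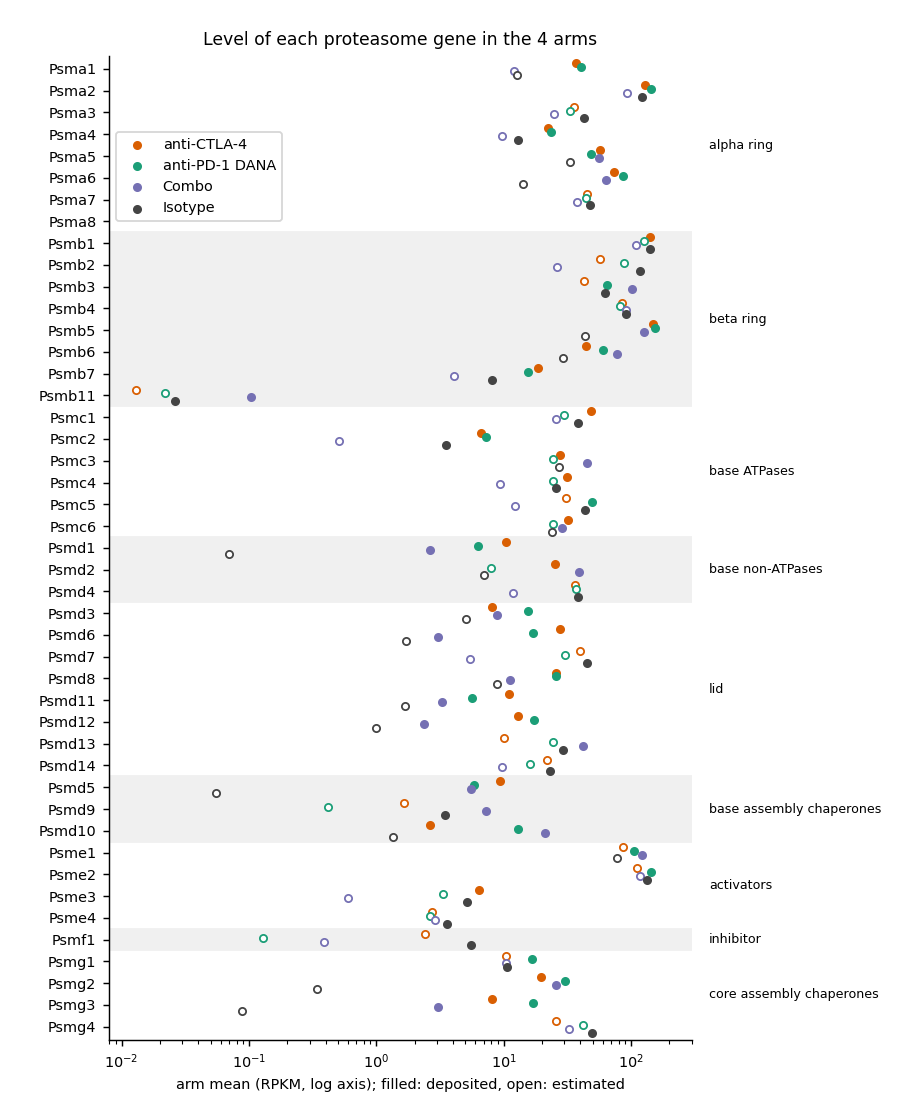
Mean level of each proteasome gene in the 4 arms, in RPKM on a log axis, by role class; filled points are deposited means and open points are estimated from a deposited mean and fold change, and Psma8 is at 0. The treated arms of Psmd1, Psmd5, Psmg2 and Psmg3 stand far to the right of isotype. Among core and ATPase genes the 4 points lie near each other for some, such as Psma7, Psmb1 and Psmb4. They are spread for others, such as Psmc2, from an estimated 0.511 RPKM in Combo to 7.28 in anti-PD-1 DANA.

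The summed level of the family was of the same order in every arm. Over the 45 genes it came to 1636 RPKM in anti-CTLA-4, 1759 in anti-PD-1 DANA and 1449 in Combo, against 1396 in isotype, with medians of 26, 24.4 and 12 RPKM against 14.3. A level called "about" in what follows is estimated from a deposited mean and fold change, which came within 0.15 log2 of the known mean for 90% of genes used as a check. The genes of this check had a listed isotype mean of 1 RPKM or more and a higher treated mean. Many of them also set the shift between RPKM ratios and fold changes that the estimate uses. Estimates under 1 RPKM, those of Psmd1, Psmd5, Psmg2 and Psmg3 in isotype included, were therefore not checked. Levels in RPKM follow library size, whereas the authors scaled their fold changes in another way: relative to the RPKM ratio these are lower by a median of 0.94 log2 in the anti-CTLA-4 table, 0.82 in the anti-PD-1 DANA table and 0.11 in the Combo table. A gene can therefore have a higher RPKM in a treated arm than in isotype beside a fold change below 0. With library size scaling the sign changed for 12 of 44 members under anti-CTLA-4, 10 under anti-PD-1 DANA and 1 under Combo, of which 0 were called. The median log2 fold change of the tested members was -0.71 under anti-CTLA-4, -0.65 under anti-PD-1 DANA and 0.03 under Combo, beside -0.62, -0.45 and -0.42 for all tested genes. Their means were 0.06, 0.14 and 0.33, so median and mean had opposite signs for the 2 single antibodies, and scaling by library size moved the medians to 0.23, 0.16 and 0.14, beside 0.33, 0.36 and -0.31 for all genes. No direction can therefore be given for the family as a whole. In the authors' scaling 14, 16 and 22 of 44 members lay above 0.

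**Figure D3:**
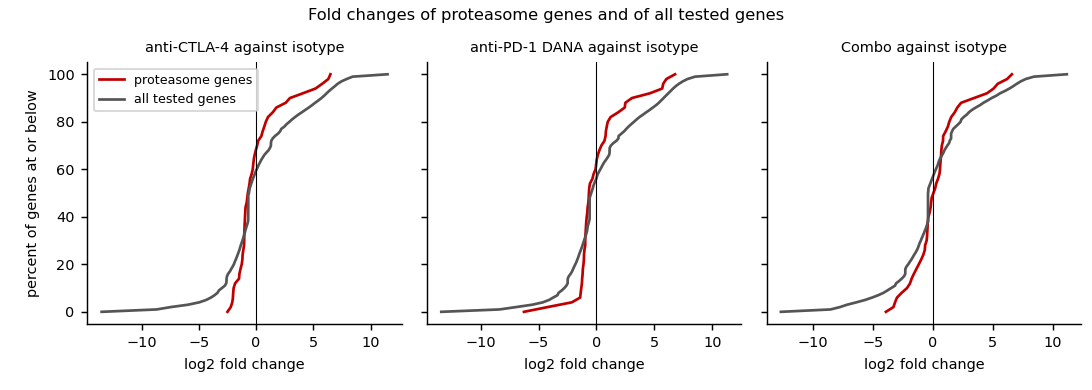
Cumulative distribution of log2 fold changes against isotype in the authors' deposited tables for the 44 tested proteasome genes (red) and all 17833 tested genes (grey), 1 panel per treated arm. The red curve is steeper through the middle. The quartiles of the proteasome genes were -1.14 and 0.55 under anti-CTLA-4, -1.06 and 0.80 under anti-PD-1 DANA and -0.74 and 0.92 under Combo. For all genes they were -1.53 and 1.92, -1.43 and 2.15, and -1.45 and 1.51. The proteasome genes also had smaller errors, with a median implied error of 1.21 in each table, against 1.95, 1.93 and 1.94 for all genes. The curves were not matched for level or error.

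In the alpha ring, whose 7 tested genes form the gate of the core, none was called in any table, and only Psma6 with Combo had an unadjusted p under 0.05. The fold changes in this paragraph and in those on the other classes are log2 values from the authors' deposited tables, with anti-CTLA-4 first, anti-PD-1 DANA next and Combo last. For Psma6 the level was 73.9 RPKM under anti-CTLA-4, 87.3 under anti-PD-1 DANA and 63.3 under Combo, against about 14.3 under isotype (log2 fold changes 1.42, 1.80 and 2.03). The Combo value of Psma6, 2.03 ± 0.94 in the authors' deposited table, had an adjusted p of 0.410, the anti-PD-1 DANA value, 1.80 ± 0.94, one of 0.628 and the anti-CTLA-4 value an unadjusted p of 0.129. Its reads were spread over all treated libraries, at 1668, 1442 and 2510 in anti-CTLA-4, 2329, 3332 and 3282 in anti-PD-1 DANA, and 2947, 1411 and 3002 in Combo. At 129 RPKM in anti-CTLA-4, 143 in anti-PD-1 DANA and about 93.7 in Combo, against 122 in isotype, Psma2 had log2 fold changes of -0.91, -0.62 and -0.49. Psma5 had 57.5 RPKM in anti-CTLA-4, 48.8 in anti-PD-1 DANA and 56.1 in Combo, against about 33.2 in isotype, with log2 fold changes of -0.16, -0.24 and 0.67. Psma2 was thus among the most abundant members in each arm. Psma5 reads in Combo were 469, 71 and 8559, so the largest library gave 90.4% of that mean, whereas its anti-CTLA-4 reads (1654, 1251 and 1480) and anti-PD-1 DANA reads (1225, 1527 and 2746) corresponded to levels that differed by at most 2.24-fold between the libraries of an arm. For Psma1 the level was 37.0 RPKM under anti-CTLA-4, 40.7 under anti-PD-1 DANA and about 12 under Combo, against about 12.7 under isotype (log2 fold changes 0.53, 0.81 and -0.20). At about 36.0 RPKM in anti-CTLA-4, about 33.3 in anti-PD-1 DANA and about 25.1 in Combo, against 42.7 in isotype, Psma3 had log2 fold changes of -1.19, -1.17 and -0.87. Within the anti-CTLA-4 table, Psma3 was the alpha subunit furthest from 0 relative to its error (-1.19 ± 0.62, adjusted p = 0.628, in the authors' deposited table). Psma4 had 22.2 RPKM in anti-CTLA-4, 23.5 in anti-PD-1 DANA and about 9.71 in Combo, against 12.9 in isotype, with log2 fold changes of -0.27, -0.04 and -0.52. For Psma7 the level was about 45.2 RPKM under anti-CTLA-4, about 44.8 under anti-PD-1 DANA and about 37.9 under Combo, against 47.9 under isotype (log2 fold changes -1.03, -0.91 and -0.45). The isotype reads of Psma4 were 339, 11 and 2545, against 866, 1040 and 1316 in anti-CTLA-4 and 1434, 1528 and 1626 in anti-PD-1 DANA.

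The 8 beta ring genes include the constitutive catalytic subunits, and none was called in any table. At 150 RPKM in anti-CTLA-4, 155 in anti-PD-1 DANA and 126 in Combo, against about 43.8 in isotype, Psmb5 had log2 fold changes of 0.82, 1.02 and 1.42. Psmb5, the chymotrypsin-like subunit, was the most abundant member in all 3 treated arms. Psmb6 had 44.5 RPKM in anti-CTLA-4, 60.2 in anti-PD-1 DANA and 77.6 in Combo, against about 29.4 in isotype, with log2 fold changes of -0.37, 0.20 and 1.31. For Psmb7 the level was 18.7 RPKM under anti-CTLA-4, 15.6 under anti-PD-1 DANA and about 4.12 under Combo, against 8.16 under isotype (log2 fold changes 0.19, 0.06 and -1.09). These are the caspase-like and trypsin-like subunits. Psmb7 reads were 911, 1045 and 2243 in anti-CTLA-4 and 1151, 1448 and 1885 in anti-PD-1 DANA, against 1025, 11 and 1333 in isotype, where the middle library was almost without them. Psmb7 shares 405 exon bases (11.8%) with Nek6 on the other strand. At about 57.0 RPKM in anti-CTLA-4, about 88.5 in anti-PD-1 DANA and about 26.4 in Combo, against 119 in isotype, Psmb2 had log2 fold changes of -2.0, -1.24 and -2.27. Psmb2, a structural subunit, had -2.0 ± 0.78 (adjusted p = 0.219) under anti-CTLA-4, -1.24 ± 0.78 (adjusted p = 0.995) under anti-PD-1 DANA and -2.27 ± 0.78 (adjusted p = 0.0942) under Combo in the authors' deposited table. Psmb3 had about 43.2 RPKM in anti-CTLA-4, 65.5 in anti-PD-1 DANA and 102 in Combo, against 62.6 in isotype, with log2 fold changes of -1.48, -0.76 and 0.59. The single-antibody and Combo values of Psmb3, also structural, had opposite signs: -1.48 ± 0.53 (adjusted p = 0.143) under anti-CTLA-4, -0.76 ± 0.53 under anti-PD-1 DANA and 0.59 ± 0.53 under Combo in the authors' deposited table. For Psmb1 the level was 141 RPKM under anti-CTLA-4, about 126 under anti-PD-1 DANA and about 109 under Combo, against 141 under isotype (log2 fold changes -0.97, -0.97 and -0.47). At about 85.1 RPKM in anti-CTLA-4, about 82.9 in anti-PD-1 DANA and about 92.4 in Combo, against 91.3 in isotype, Psmb4 had log2 fold changes of -1.05, -0.96 and -0.09. Both are structural subunits. Psmb11 had about 0.0129 RPKM in anti-CTLA-4, about 0.0220 in anti-PD-1 DANA and 0.104 in Combo, against 0.0265 in isotype, with log2 fold changes of -1.98, -1.09 and 1.78. Psmb11 is the catalytic subunit of cortical thymic epithelium, and its reads numbered 28, 3 and 4 in the Combo libraries against 2, 4 and 3 in the isotype libraries.

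The 6 ATPases that form the ring of the base were called in no table, and none had an unadjusted p under 0.05. For Psmc1 the level was 48.4 RPKM under anti-CTLA-4, about 29.6 under anti-PD-1 DANA and about 26 under Combo, against 38.4 under isotype (log2 fold changes -0.58, -1.19 and -0.67). At 31.9 RPKM in anti-CTLA-4, about 24.4 in anti-PD-1 DANA and 28.8 in Combo, against about 24.0 in isotype, Psmc6 had log2 fold changes of -0.53, -0.79 and 0.15. Psmc3 had 27.7 RPKM in anti-CTLA-4, about 24.3 in anti-PD-1 DANA and 45.3 in Combo, against about 27.1 in isotype, with log2 fold changes of -0.94, -0.97 and 0.61. Each is 1 of the ring ATPases. Psmc3 led the class with anti-CTLA-4 (-0.94 ± 0.81) and anti-PD-1 DANA (-0.97 ± 0.81), each with an adjusted p of 1.0, and Psmc2 with Combo (-2.90 ± 1.51, adjusted p = 0.624), in the authors' deposited tables. For Psmc2 the level was 6.62 RPKM under anti-CTLA-4, 7.28 under anti-PD-1 DANA and about 0.511 under Combo, against 3.55 under isotype (log2 fold changes 0.09, 0.39 and -2.90). Psmc2 reads were 815, 529 and 501 in anti-CTLA-4 and 701, 599 and 1873 in anti-PD-1 DANA, against 10, 1297 and 7 in isotype, so 1 isotype library carried 98.8% of that mean. At about 31.0 RPKM in anti-CTLA-4, 49.5 in anti-PD-1 DANA and about 12.3 in Combo, against 43.9 in isotype, Psmc5 had log2 fold changes of -1.45, -0.68 and -1.95. Psmc5 was carried by another isotype library, with 2398, 1410 and 1768 reads in anti-PD-1 DANA against 4381, 7 and 15 in isotype. Psmc4 had 31.7 RPKM in anti-CTLA-4, about 24.5 in anti-PD-1 DANA and about 9.38 in Combo, against 25.9 in isotype, with log2 fold changes of -0.75, -0.90 and -1.57. Psmc4 was present in each solved library, at 1383, 1558 and 902 reads in anti-CTLA-4 against 1089, 210 and 3759 in isotype.

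Of the other base subunits, Psmd2, the second scaffold, and Psmd4, a ubiquitin receptor, were not called. For Psmd2 the level was 25.5 RPKM under anti-CTLA-4, about 7.91 under anti-PD-1 DANA and 39.4 under Combo, against about 6.97 under isotype (log2 fold changes 0.91, -0.63 and 2.40). Psmd2 had 2.40 ± 0.95 under Combo (adjusted p = 0.210) in the authors' deposited table. At about 36.7 RPKM in anti-CTLA-4, about 37.4 in anti-PD-1 DANA and about 11.9 in Combo, against 38.4 in isotype, Psmd4 had log2 fold changes of -1.01, -0.85 and -1.79. Psmd4 had -1.79 ± 0.84 under Combo (adjusted p = 0.426) in the authors' deposited table. Counting Psmd1, each of the 3 members of the base outside the ATPase ring had an unadjusted p under 0.05 with Combo, 2 upward and 1 downward. Of all tested genes 23.2% did. Adrm1, which docks on Psmd1 and is outside the rule, did not (2.18 ± 1.43, p = 0.127 in the authors' deposited table).

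None of the 8 lid genes was called in any table, and 4 had an unadjusted p under 0.05 in some table. By table, 1 was higher and 1 lower with anti-CTLA-4, 1 higher with anti-PD-1 DANA and 1 lower with Combo. Of all tested genes 22.9%, 23.1% and 23.2% passed in these tables. Psmd13 had about 10.1 RPKM in anti-CTLA-4, about 24.4 in anti-PD-1 DANA and 42.1 in Combo, against 29.5 in isotype, with log2 fold changes of -2.49, -1.09 and 0.40. Psmd13, a structural lid subunit that shares 342 exon bases (10.1%) with Sirt3 on the other strand, had -2.49 ± 0.79 under anti-CTLA-4 (adjusted p = 0.0760) in the authors' deposited table. For Psmd6 the level was 27.8 RPKM under anti-CTLA-4, 16.9 under anti-PD-1 DANA and 3.06 under Combo, against about 1.72 under isotype (log2 fold changes 3.06, 2.50 and 0.68). Psmd6 had 3.06 ± 1.36 under anti-CTLA-4 (adjusted p = 0.378) in the authors' deposited table. At 13 RPKM in anti-CTLA-4, 17.2 in anti-PD-1 DANA and 2.37 in Combo, against about 1.0 in isotype, Psmd12 had log2 fold changes of 2.74, 3.30 and 1.16. Psmd12 had 3.30 ± 1.44 under anti-PD-1 DANA (adjusted p = 0.348) in the authors' deposited table; its reads were 630, 894 and 410 in anti-CTLA-4, 1147, 1450 and 1115 in anti-PD-1 DANA, and 116, 52 and 533 in Combo. The differences of Psmd12 between Combo and the other treated arms did not pass the test, at -1.59 ± 1.44 against anti-CTLA-4 and -2.14 ± 1.44 against anti-PD-1 DANA (adjusted p = 1.0 each, computed from the authors' p-values). Psmd7 had about 39.7 RPKM in anti-CTLA-4, about 30.3 in anti-PD-1 DANA and about 5.41 in Combo, against 45 in isotype, with log2 fold changes of -1.13, -1.39 and -3.16. Psmd7, the partner of the deubiquitinase, had -3.16 ± 1.22 under Combo (adjusted p = 0.180) in the authors' deposited table. For Psmd14 the level was about 21.8 RPKM under anti-CTLA-4, about 16 under anti-PD-1 DANA and about 9.80 under Combo, against 23.0 under isotype (log2 fold changes -1.02, -1.34 and -1.34). Psmd14 is the deubiquitinase itself. At 8.18 RPKM in anti-CTLA-4, 15.5 in anti-PD-1 DANA and 8.96 in Combo, against about 5.06 in isotype, Psmd3 had log2 fold changes of -0.24, 0.80 and 0.72. Psmd8 had 26 RPKM in anti-CTLA-4, 25.8 in anti-PD-1 DANA and 11.2 in Combo, against about 8.93 in isotype, with log2 fold changes of 0.61, 0.70 and 0.22. For Psmd11 the level was 11.1 RPKM under anti-CTLA-4, 5.70 under anti-PD-1 DANA and 3.26 under Combo, against about 1.68 under isotype (log2 fold changes 1.78, 0.95 and 0.84). These are structural lid subunits. Psmd11 reads were 553, 1851 and 2305 in anti-CTLA-4, 984, 958 and 1045 in anti-PD-1 DANA and 667, 203 and 1236 in Combo, and Psmd8 reads were 448, 1756 and 3428, then 1292, 2947 and 2325, then 421, 674 and 2754 in the same arms, so no treated library lacked either gene.

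The base chaperones besides Psmd5 were not called. At 2.64 RPKM in anti-CTLA-4, 13 in anti-PD-1 DANA and 21.2 in Combo, against about 1.35 in isotype, Psmd10 had log2 fold changes of -0.05, 2.45 and 3.86. Psmd10, also known as gankyrin, had 3.86 ± 1.82 under Combo (adjusted p = 0.450) in the authors' deposited table. That mean rested on 1 library: reads were 165, 4 and 6 in anti-CTLA-4, 4, 389 and 1362 in anti-PD-1 DANA and 5, 2 and 3970 in Combo, where the largest library gave 99.7%. Psmd9 had about 1.64 RPKM in anti-CTLA-4, about 0.418 in anti-PD-1 DANA and 7.31 in Combo, against 3.49 in isotype, with log2 fold changes of -2.04, -3.88 and 0.84. Psmd9 had -3.88 ± 1.62 under anti-PD-1 DANA (adjusted p = 0.296) in the authors' deposited table, and a long noncoding RNA on the other strand overlaps 25.5% of its exon bases.

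The alternative activators were called in no table. For Psme1 the level was about 87.2 RPKM under anti-CTLA-4, 106 under anti-PD-1 DANA and 123 under Combo, against about 78 under isotype (log2 fold changes -0.78, -0.36 and 0.54). At about 112 RPKM in anti-CTLA-4, 143 in anti-PD-1 DANA and about 118 in Combo, against 133 in isotype, Psme2 had log2 fold changes of -1.19, -0.67 and -0.28. Psme1 and Psme2 form the interferon-inducible cap that favours peptide release, and neither was below about 78 RPKM in any arm. Psme2 had -1.19 ± 0.46 under anti-CTLA-4 (adjusted p = 0.217) and -0.67 ± 0.46 under anti-PD-1 DANA (adjusted p = 1.0) in the authors' deposited table, the smallest errors among the members. Psme3 had 6.42 RPKM in anti-CTLA-4, about 3.33 in anti-PD-1 DANA and about 0.602 in Combo, against 5.15 in isotype, with log2 fold changes of -0.67, -1.44 and -3.20. Psme3, the nuclear activator, had -3.20 ± 1.72 under Combo (adjusted p = 0.690) in the authors' deposited table. Its reads were 37, 288 and 1160 in anti-CTLA-4 against 85, 2 and 1379 in isotype. For Psme4 the level was about 2.74 RPKM under anti-CTLA-4, about 2.63 under anti-PD-1 DANA and about 2.89 under Combo, against 3.58 under isotype (log2 fold changes -1.33, -1.26 and -0.41). Psme4 is the activator linked to histone degradation.

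**Figure D4:**
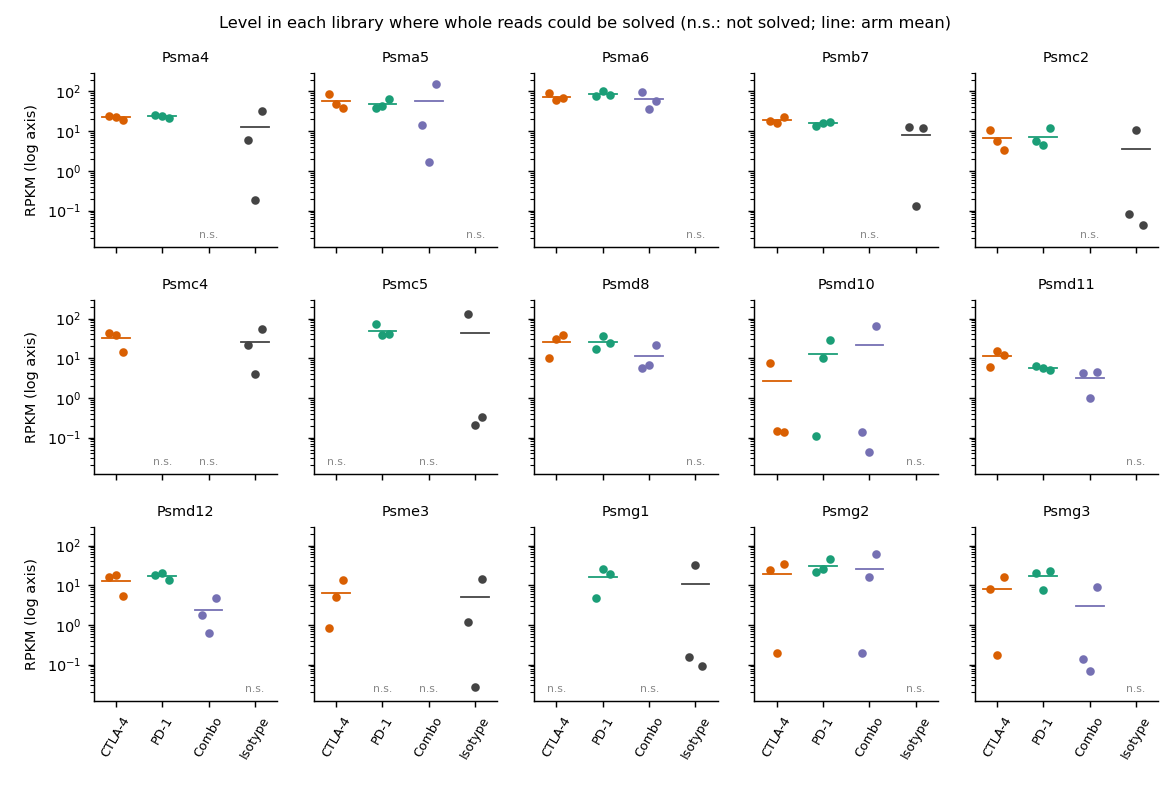
Level in each library, in RPKM on a log axis, of 15 proteasome genes whose whole reads could be solved; points are libraries from smallest to largest within an arm, lines are arm means, and n.s. marks an arm not solved. Several genes have 1 high and 1 or 2 near-empty libraries in isotype or Combo (Psmc5, Psmg1, Psmd10), while Psma6 is high in every solved library.

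Whole reads per library could be solved for 16 members, giving 43 of the 102 distinct means of all members; Psmd1, Psmd5 and Psmf1 are not among them, so how many of their libraries show the change is not known here. Among members with a mean of 1 RPKM or more, a single library gave 80% or more of the mean in 1 of 13 means in anti-CTLA-4, 0 of 13 in anti-PD-1 DANA and 3 of 8 in Combo, against 5 of 7 in isotype. For other genes solved in the same way these shares were 25%, 21.9% and 44.5%, against 68.3% in isotype. The isotype mean of Psmg1, for example, came from 5, 1049 and 4 reads, against 159, 927 and 817 in anti-PD-1 DANA. The processed copies Psmb5-ps, Psmb6-ps, Psmb6-ps2 and Psmb7-ps2 were listed at no more than 0.259 RPKM, and how the authors' counting split reads between near-identical copies is not given in the sources used here. Reads amplified over 21 cycles are not independent molecules, so the counts show reads and not transcripts. Each table lists only the larger group mean. An isotype mean could thus be solved only where it exceeded a treated mean, and a treated mean only where it exceeded isotype. A mean raised by 1 library can be among the solved means for that reason, and the arms were solved for different genes. Among the solved means, uneven libraries were seen in the isotype and Combo arms above all. How far the selection made this so, and the part of uneven libraries in the fold changes, was not tested.

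Treated arms were compared through differences of their log2 fold changes, in which isotype cancels. For Combo against anti-CTLA-4, 1 of 44 members was called, where 0.903% of tested genes were: Psmb3 was higher in Combo by 2.07 ± 0.53 (adjusted p = 0.0346, computed from the authors' p-values), with 102 RPKM in Combo against about 43.2 in anti-CTLA-4. With library size scaling no member was called in this comparison. Psmd13 had the next lowest adjusted p, 0.0641, for a difference of 2.90 ± 0.79 from the same values of the authors; 6 members had an unadjusted p under 0.05, where 12.5% of tested genes did. For Combo against anti-PD-1 DANA, 0 of 44 members were called, where 0.449% of tested genes were, and 4 had an unadjusted p under 0.05, where 11.0% of tested genes did; the lowest adjusted p, 0.212, was that of Psmd2 (3.04 ± 0.95). For anti-PD-1 DANA against anti-CTLA-4, 0 members and 0% of tested genes were called, and 1 member, Psmf1, had an unadjusted p under 0.05 (-4.10 ± 1.69, adjusted p of 1.0), where 6.46% of tested genes did. The genes called against isotype showed no called difference between treated arms: Psmd5 differed by 0.09 ± 1.39 and Psmd1 by -1.16 ± 1.48 between Combo and anti-CTLA-4. With errors of this size even differences of many fold would not be called, so the treated arms cannot be said to be alike for these genes.

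The immunoproteasome genes, which the rule leaves out, gave 1 call. Psmb9 had log2 fold changes of 1.47 ± 0.81 (adjusted p = 0.727) under anti-CTLA-4, 1.55 ± 0.81 (adjusted p = 0.619) under anti-PD-1 DANA and 2.65 ± 0.81 (adjusted p = 0.0404) under Combo in the authors' deposited table. Psmb8 and Psmb10 were called in none. Of 28 tested genes of the wider pathway (ubiquitin, its activating enzyme, shuttles, regulators and cap-bound partners), 1 was called higher under anti-CTLA-4, 1 under anti-PD-1 DANA and 0 under Combo, and none lower, where 4.23%, 3.75% and 7.53% of tested genes were called. At an unadjusted p under 0.05, 2 were higher and 4 lower under anti-CTLA-4, 1 higher and 1 lower under anti-PD-1 DANA, and 1 higher and 4 lower under Combo, where 22.9%, 23.1% and 23.2% of tested genes passed. The called gene was Adrm1, a ubiquitin receptor that docks on Psmd1, at 4.93 ± 1.42 (adjusted p = 0.0410) under anti-CTLA-4, 4.88 ± 1.42 (adjusted p = 0.0457) under anti-PD-1 DANA and 2.18 ± 1.43 (adjusted p = 1.0) under Combo in the authors' deposited table. The medians of this list were -0.53, -0.50 and -0.39.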

How the data were processed

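RNA was read in 12 libraries of 4 arms. Per the labels' protocols, 0.25 ng of RNA was amplified with 21 cycles, given Nextera adapters, sequenced on an Illumina instrument, and aligned and quantified in CLC Genomics Workbench. The build was GRCm38.p5 per the submitters' processing notes, while no source used here states the program's version, the annotation or the model behind the test. The authors deposited 3 tables, each treated arm against isotype, with no value per library. The larger of the 2 group means is in RPKM in the authors' deposited tables, as read from the values, and the table does not name the group. Fold changes deposited by the authors, on the log2 scale and as a signed score (the negative inverse where lower), are treated over isotype. The deposited p-value of each gene, its false discovery rate and its Bonferroni value cover all 48709 listed genes, of which 17833 were tested. A call is a deposited false discovery rate under 0.05.

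The proteasome members and the lists were chosen with earlier results of these data known. Every member with an unadjusted p under 0.05 in any table, and the leading member of each role class, is given with its error and adjusted p. A mean found in 2 or more tables was taken as the isotype mean; this departs from the design, which placed means by the sign of the fold change, because the authors' scaling differs from library size by 0.94 log2 in the anti-CTLA-4 table, 0.82 in the anti-PD-1 DANA table and 0.11 in the Combo table. Other levels were estimated from a listed mean, the fold change and that shift. Each error is the size of the deposited log2 fold change divided by the normal deviate that its p-value corresponds to. Differences between treated arms used these errors, with equal variances where the 3 errors lay within 5%, and Benjamini-Hochberg adjustment over all listed genes.

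Library sizes and whole reads per library were solved from the 10 decimals of the RPKM means and exon lengths of GENCODE mouse release M21, which matched 48349 gene IDs (99.3%). A solution was kept where its joint chance was at most 0.05, a limit chosen after the data were seen. With annotated lengths 13 of 47 proteasome genes, the immunoproteasome genes included, were solved (27.7%), against 4 of 282 trials (1.42%) with lengths off by 1 to 3 bases, so a few solutions may be chance. For Psmg2, Psmg3 and Psmb11 exons of some transcripts only were used. The tables hold no counts, so no count model, leave-one-out or block could be fitted. The solving of whole reads was tested on simulated data, with the library sizes and the annotated exon lengths taken as known. The search for library sizes and the choice among transcripts were not part of that simulation. Promoters are from RefSeq (GRCm38.p6). Python 3.11.15, numpy 2.4.6, pandas 2.3.3, scipy 1.17.1, numba 0.67.0 and matplotlib 3.10.9 were used.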

Additional observations from a re-analysis of the deposited data

How the results depend on the processing

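Bonferroni adjustment left 0 members called in each comparison against isotype. Adjustment over tested genes only gave 5 calls under anti-CTLA-4, 5 under anti-PD-1 DANA and 4 under Combo, where 9.06%, 8.95% and 12.5% of tested genes were called, and a larger mean of 5 RPKM or more gave 6, 5 and 4, where 13.9%, 12.9% and 22.1% of the genes kept were. Under both, Psmg2 and Psmg3 were also called higher with anti-CTLA-4, Psmd13 lower with anti-CTLA-4 and Psmb2 lower with Combo; the 5 RPKM filter further gave Psmb3 lower with anti-CTLA-4 and Psmd7 lower with Combo, and removed Psmd1 and Psmg3 from the Combo comparison. Library size scaling gave 4, 4 and 3 calls, where 7.67%, 6.82% and 7.62% of tested genes were called. All of these member calls were higher, as were 1188 of 1367, 1051 of 1217 and 755 of 1359 calls over all tested genes. An unadjusted p under 0.05 gave 9, 7 and 11, where 22.9%, 23.1% and 23.2% of tested genes passed. For Combo against anti-CTLA-4, adjustment over genes with a difference gave 2 calls, and the upper bound of the error and library size scaling gave 0 each. Library size scaling changed the sign of 12, 10 and 1 of the 44 members in the 3 comparisons, none of them called; among the members with an unadjusted p under 0.05 in any table these were Psmb3 (0.05), Psmd2 (0.18) and Psme2 (0.15) with anti-PD-1 DANA, and Psmd10 with anti-CTLA-4 (0.89). The scaling shift is the construction of that alternative. The median fold changes ranged with the setting from -0.75 to 0.23 under anti-CTLA-4, from -0.66 to 0.16 under anti-PD-1 DANA and from -0.18 to 0.33 under Combo, the mean in place of the median included.

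No paired analysis was possible because the tables hold 1 comparison of group means each and no value per library. For the same reason leaving out a library, a replicate block, edgeR, DESeq2 and a count filter were not run. The isotype levels of Psmd1, Psmd5, Psmg2 and Psmg3 are estimates from a deposited mean and fold change. They lie under 1 RPKM, where such estimates were not checked. At the isotype depth they correspond to about 29.7 reads for Psmg2 and 6.31 for Psmg3, and the reads behind those of Psmd1 and Psmd5 are not known here.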
